A study of Saccharomyces cerevisiae with 3 samples.

Results

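The genes described are those of the aminoacyl-tRNA synthetases of the yeast *Saccharomyces cerevisiae*. They were chosen by the function of their products and not by a cut on any measured value, though earlier results of these data were known. They are 21 genes of enzymes that work in the cytosol, 13 genes of enzymes that work only in mitochondria, and ARC1, whose product binds to cytosolic synthetases. All 35 are among the 5293 open reading frames (ORFs) listed in each library. In every library the cytosolic genes stood far above the mitochondrial ones, with medians of 362 against 22.7 RPKM after poly(A) selection, 491 against 25.2 RPKM after RiboMinus and 502 against 23.8 RPKM in unselected RNA. No cytosolic gene of this set overlapped a mitochondrial gene in level in any library. GRS2, a second glycyl-tRNA synthetase gene, is not in the set. It had 21.8, 17.6 and 20.2 RPKM in the same order of libraries, within the range of the mitochondrial genes. In poly(A)-selected RNA, 13 of the 35 genes were at least 1.5-fold lower than in unselected RNA and 0 were higher, where 21.3% of all ORFs kept were lower and 20.4% higher, and the 4 lowest were the longest cytosolic genes. The 13 became 9 without centring, where 12.6% of all ORFs kept were lower. They became 2 once the trend of all ORFs with coding length was removed, where 9.50% were. With the trend against GC content removed 11 were lower, where 20.6% of all ORFs were. With the trend against expression removed 16 were lower, where 21.1% of all ORFs were.

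Aminoacyl-tRNA synthetases join each amino acid to its tRNA, the step that sets which amino acid a codon stands for. They fall into unrelated class I and class II folds. Both the cytosol and the mitochondrial matrix need such enzymes, and yeast makes all of them from nuclear genes. Some amino acids have a separate gene for each compartment. For some others a single gene makes both forms. The mitochondrial form carries an N-terminal presequence, usually rich in basic and poor in acidic residues, that directs import.

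RNA was taken from BY4741, a haploid laboratory strain of mating type a that carries auxotrophic marker deletions, grown in the rich medium YPD to mid-log phase. All 3 libraries hold cytoplasmic RNA of this strain and differ in preparation: poly(A)-selected on Dynabeads oligo(dT), which capture poly(A) tails; RiboMinus, in which probes remove rRNA; and unselected total RNA. The labels' extraction text names an rRNA depletion for the RNA-seq libraries as a group, whereas the title of the last library calls it unselected, and the title was followed here. Every ratio over unselected RNA rests on that reading. Each preparation is 1 library, so no difference between them has a replicate check and none has a p-value. Ribosome footprints and Ribo-Zero RNA were not analysed here. Reads assigned to ORFs were inferred from the spacing of low RPKM values and were not given by the submitters. They came to 6467396 in the poly(A)-selected, 1317753 in the RiboMinus and 4452587 in the unselected library. All read counts and counting intervals rest on that inference. STE2, the receptor that cells of mating type a express, had 483, 512 and 429 RPKM in that order, while STE3, its counterpart in the opposite mating type, had 5.59, 2.15 and 6.53 RPKM.

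The beginnings of the coding sequences show how the enzyme sets differ in a feature other than level. Below are the first 25 codons, 5′ to 3′ on the coding strand, of the cytosolic and mitochondrial genes that were farthest apart in unselected level (asparagine), closest in level (tryptophan) and most alike in protein sequence (arginine). Capitals mark codons for the acidic residues aspartate and glutamate. Sequences and positions come from the RefSeq annotation of assembly R64, the assembly behind sacCer3.
DED81, chrVIII:143484-143558, minus strand: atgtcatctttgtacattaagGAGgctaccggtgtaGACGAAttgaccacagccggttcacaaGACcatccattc
SLM5, chrIII:162148-162222, minus strand: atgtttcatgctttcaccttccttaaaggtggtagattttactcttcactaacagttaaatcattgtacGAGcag
WRS1, chrXV:137751-137825, minus strand: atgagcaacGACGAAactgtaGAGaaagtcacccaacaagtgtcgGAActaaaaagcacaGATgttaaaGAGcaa
MSW1, chrIV:1004004-1004078, plus strand: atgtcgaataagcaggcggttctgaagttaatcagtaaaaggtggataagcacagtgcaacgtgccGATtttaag
YDR341C, chrIV:1153552-1153626, minus strand: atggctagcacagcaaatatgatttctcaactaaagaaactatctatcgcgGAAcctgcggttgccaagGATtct
MSR1, chrVIII:286696-286770, minus strand: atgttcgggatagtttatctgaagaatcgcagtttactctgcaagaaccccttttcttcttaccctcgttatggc

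The asparagine pair had 4 acidic codons in DED81 and 1 in SLM5. The tryptophan pair had 6 in WRS1 and 1 in MSW1. The arginine pair had 2 in YDR341C and 0 in MSR1. Over all members, the first 25 codons held 70 acidic codons in the 21 cytosolic genes, with a median of 3, and 6 in the 13 mitochondrial genes, 8 of which had 0. The only cytosolic genes with 0 acidic codons there were HTS1, VAS1 and CRS1, and all 3 also supply mitochondria. Net charge over the first 30 residues, counted as lysine plus arginine minus aspartate plus glutamate, ran from -5 to 6 with a median of 0 in cytosolic enzymes, and from 2 to 8 with a median of 5 in mitochondrial enzymes. In the 16 cytosolic enzymes that supply the cytosol only, it ran from -5 to 2 with a median of -1. In the 5 that supply both compartments, it ran from 2 to 6 with a median of 4.

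HTS1 and VAS1, for histidine and valine, are known to use alternative in-frame start codons, the upstream one for the mitochondrial form and the downstream one for the cytosolic form. Their starts are shown with both in-frame ATG codons in capitals, at codons 1 and 21 of HTS1 and at codons 1 and 47 of VAS1.
HTS1, chrXVI:638945-639019, minus strand: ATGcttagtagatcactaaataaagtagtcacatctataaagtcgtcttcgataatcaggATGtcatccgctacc
VAS1, chrVII:672186-672335, plus strand: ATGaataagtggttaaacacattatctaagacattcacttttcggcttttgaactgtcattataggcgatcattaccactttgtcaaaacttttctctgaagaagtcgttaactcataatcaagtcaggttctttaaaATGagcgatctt
Reads over a whole ORF do not tell such forms apart, so each of these genes has 1 level here. ALA1 and GRS1, for alanine and glycine, are known to start their mitochondrial forms at non-ATG codons upstream of the annotated ORF, which lie outside the coding sequence that was counted.

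Levels are given as RPKM, inferred from the values to be reads per kilobase of coding sequence per 1e6 reads in the listed ORFs. The division takes out the larger number of reads that a longer ORF yields at the same level. It does not take out other differences that go with length. Across all ORFs kept, Spearman's rho of coding length with poly(A)-selected over unselected level was -0.76. Comparisons of genes of different length within a library carry that limit. In bulk RNA, fewer cells with an mRNA and less mRNA per cell cannot be told apart. Among the cytosolic genes, THS1 (YIL078W), the threonyl-tRNA synthetase, had the highest level in every library, at 674 RPKM in the poly(A)-selected, 1599 in the RiboMinus and 806 in the unselected library. SES1 (YDR023W), for serine, had 564, 966 and 707 RPKM in the same order of libraries. GUS1 (YGL245W), for glutamate, had 540, 701 and 772 RPKM. These 3 led the cytosolic set by mean level, and THS1 had more than any other synthetase gene by the widest margin in RiboMinus.

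ILS1 (YBL076C), for isoleucine, had 313 RPKM in the poly(A)-selected, 980 in the RiboMinus and 714 in the unselected library. GRS1 (YBR121C), for glycine, had 614, 715 and 672 RPKM. KRS1 (YDR037W), for lysine, had 651, 608 and 664 RPKM. KRS1 and GRS1 thus differed little among the libraries, while ILS1 was far lower after poly(A) selection than in the other preparations.

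At the low end of the cytosolic set, CRS1 (YNL247W), for cysteine, had 191 RPKM in the poly(A)-selected, 220 in the RiboMinus and 236 in the unselected library. WRS1 (YOL097C), for tryptophan, had 331, 259 and 259 RPKM. MES1 (YGR264C), for methionine, had 206, 424 and 353 RPKM. CRS1 was the lowest cytosolic gene in the poly(A)-selected and unselected libraries, and FRS2 was the lowest in RiboMinus. The whole cytosolic set spanned 3.52-fold in the poly(A)-selected, 8.28-fold in the RiboMinus and 3.42-fold in the unselected library. Of the 20 pairs of neighbours in the order of level, 12, 14 and 13 had overlapping 95% Poisson intervals in those libraries, so much of the order within the set is not resolved by read counting.

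**Figure D1:**
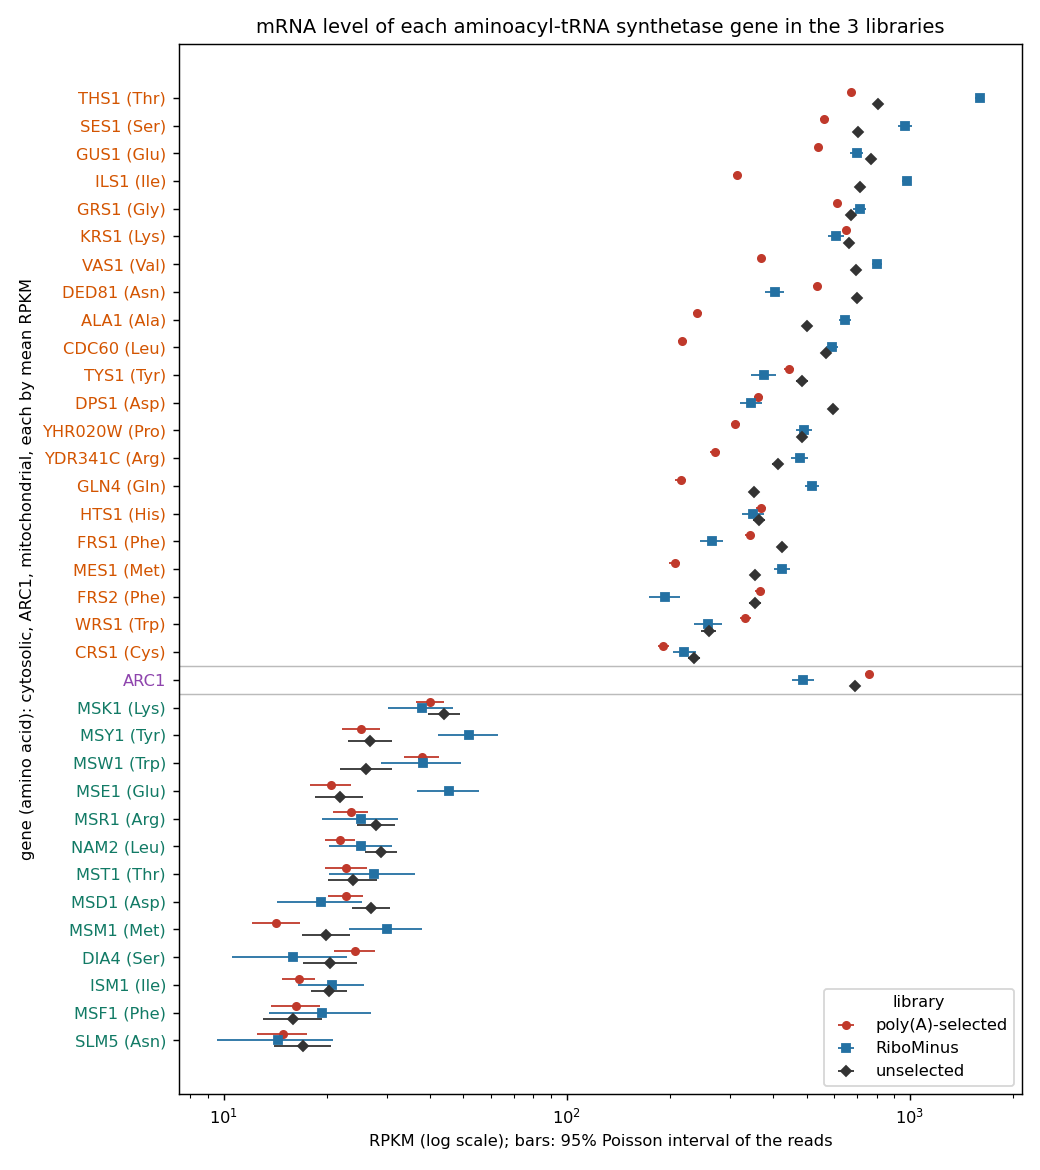
RPKM of each of the 35 genes (log axis) in the poly(A)-selected (red circles), RiboMinus (blue squares) and unselected (black diamonds) libraries, 1 library each, with 95% Poisson intervals of the reads that cover counting error only. Genes run down the page by class and mean RPKM, and the lowest cytosolic gene stands above the highest mitochondrial gene in every library, by 3.72-fold to 5.36-fold.

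The 13 mitochondrial genes ran from 14.3 to 39.9 RPKM in the poly(A)-selected, from 14.4 to 51.9 in the RiboMinus and from 16.0 to 43.9 in the unselected library. All 13 lay under the median of all ORFs kept in each library and all 21 cytosolic genes lay above it. That median was 54.1, 52.5 and 48.4 RPKM. MSK1 (YNL073W), for lysine, had 39.9, 37.8 and 43.9 RPKM. MSY1 (YPL097W), for tyrosine, had 25.1, 51.9 and 26.8 RPKM, and it was the highest mitochondrial gene in RiboMinus, while MSK1 was the highest in the other libraries.

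MSW1 (YDR268W), for tryptophan, had 37.8 RPKM in the poly(A)-selected, 38.0 in the RiboMinus and 26.1 in the unselected library. MSE1 (YOL033W), for glutamate, had 20.6, 45.3 and 21.8 RPKM. MSR1 (YHR091C), for arginine, had 23.5, 25.2 and 27.8 RPKM. With MSK1 and MSY1 these were the 5 most abundant by mean over the libraries, MSR1 at 25.5 RPKM being nearly level with NAM2 at 25.3 RPKM. The order differed by library, and in unselected RNA NAM2 stood second, after MSK1. The depth behind them is small: MSE1, for example, had 214 reads in the poly(A)-selected, 96 in the RiboMinus and 156 in the unselected library.

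The least abundant by mean over the libraries was SLM5 (YCR024C), for asparagine, with 14.9 RPKM in the poly(A)-selected, 14.4 in the RiboMinus and 17.0 in the unselected library. MSF1 (YPR047W), the mitochondrial phenylalanyl-tRNA synthetase, had 16.3, 19.4 and 16.0 RPKM. ISM1 (YPL040C), for isoleucine, had 16.6, 20.7 and 20.3 RPKM. DIA4 (YHR011W), for serine, had 24.2, 15.9 and 20.5 RPKM, and MSM1 (YGR171C), for methionine, had 14.3, 29.9 and 19.9 RPKM. The lowest gene was MSM1 in the poly(A)-selected, SLM5 in the RiboMinus and MSF1 in the unselected library. Of the 12 pairs of neighbours in order of level, the Poisson intervals of 11, 12 and 11 overlapped in the poly(A)-selected, RiboMinus and unselected libraries, so the order among mitochondrial genes is hardly resolved.

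The remaining 3 mitochondrial genes lay between these. NAM2, for leucine, which is also known to take part in splicing of mitochondrial introns, had 21.9, 25.2 and 28.8 RPKM. MST1, for threonine, had 22.8, 27.4 and 23.8 RPKM, and MSD1, for aspartate, had 22.7, 19.2 and 27.0 RPKM. As a group the mitochondrial genes took 0.051% of the ORF reads in the poly(A)-selected, 0.063% in the RiboMinus and 0.057% in the unselected library, while the cytosolic genes took 1.62%, 2.64% and 2.37%.

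For 13 amino acids the members described here include a cytosolic and a mitochondrial gene. These make 14 pairs because the cytosolic phenylalanine enzyme has FRS1 and FRS2 as its subunits. The cytosolic gene was higher in all 14 pairs in all 3 libraries. The median fold of cytosolic over mitochondrial RPKM was 18.3 in the poly(A)-selected, 17.0 in the RiboMinus and 22.1 in the unselected library. The fold varied from pair to pair, over 8.76 to 36.1, 6.80 to 60.9 and 9.95 to 41.1 in the same order.

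In unselected RNA the widest pair was asparagine, where DED81 had 701 RPKM and SLM5 had 17.0 RPKM, a fold of 41.1 (95% counting interval 34.1 to 50.0). The narrowest was tryptophan, where WRS1 had 259 RPKM and MSW1 had 26.1 RPKM, a fold of 9.95 (8.32 to 12.0). Tryptophan was the narrowest pair in the other libraries too, at 8.76 in the poly(A)-selected and 6.80 in the RiboMinus library. The widest pair was also asparagine in the poly(A)-selected library, at 36.1, whereas in RiboMinus it was serine, SES1 over DIA4, at 60.9 (42.0 to 91.8), followed by threonine, THS1 over MST1, at 58.4 (44.2 to 78.8). The lysine pair varied least among the libraries in the plot of pair folds, with KRS1 over MSK1 at 16.3, 16.1 and 15.1.

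**Figure D2:**
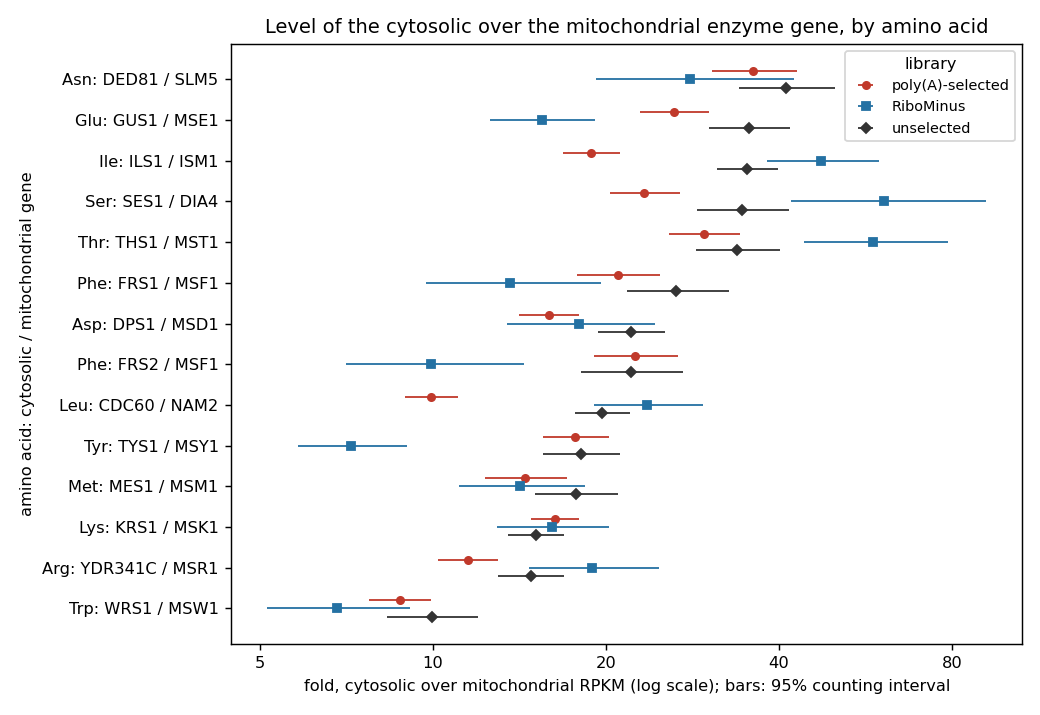
Fold of cytosolic over mitochondrial RPKM (log axis) for the 14 pairs of genes that serve the same amino acid, in the poly(A)-selected (red circles), RiboMinus (blue squares) and unselected (black diamonds) libraries, with 95% counting intervals. Every fold is above 6, asparagine is widest and tryptophan narrowest in unselected RNA, and the RiboMinus values spread the most, from 6.80 to 60.9.

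The proteins of a pair were mostly far apart in sequence. YDR341C and MSR1, for arginine, were the most alike, with 59.8% of the residues of the shorter protein identical in a global alignment. THS1 and MST1 shared 41.3%, KRS1 and MSK1 shared 32.1%, and the other 11 pairs shared 19.4% to 28.9%. No stretch of 30 bases of any of the 35 coding sequences occurred elsewhere in the genome, and none overlapped another annotated coding sequence, so splitting of reads between copies does not touch these levels at that length.

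Codon usage separated the sets as well. The codon adaptation index, which measures how far a gene uses the codons favoured by a set of standard genes, was taken here with 53 cytosolic ribosomal protein genes as the standard. It ran from 0.346 to 0.543, with a median of 0.414, in cytosolic genes, and from 0.157 to 0.236, with a median of 0.192, in mitochondrial genes. The median of all ORFs was 0.204. Across the 21 cytosolic genes the index and the unselected RPKM rose together, with a Spearman's rho of 0.879 across genes. Across the 13 mitochondrial genes rho was -0.49, and across all 5199 ORFs kept it was 0.555. Those are descriptions of genes that share 1 library, and genes are not independent replicates.

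**Figure D3:**
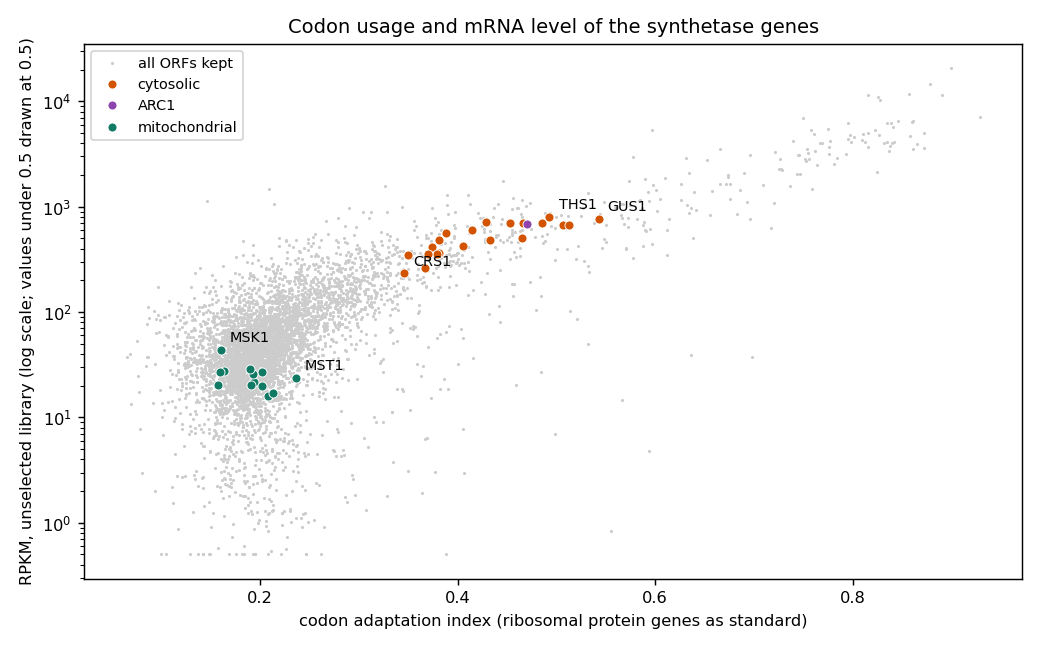
RPKM in the unselected library (log axis) against the codon adaptation index for all ORFs kept (grey), the 21 cytosolic genes (orange), ARC1 (purple) and the 13 mitochondrial genes (green). The cytosolic genes lie between 0.346 and 0.543 on the index, and the mitochondrial genes lie between 0.157 and 0.236 and below 50 RPKM.

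FRS1 (YLR060W) and FRS2 (YFL022C), whose products assemble into the phenylalanyl-tRNA synthetase, had 341 and 366 RPKM in the poly(A)-selected, 264 and 193 RPKM in the RiboMinus, and 423 and 353 RPKM in the unselected library. The fold of FRS1 over FRS2 was 0.932 (0.891 to 0.976), 1.37 (1.20 to 1.56) and 1.20 (1.14 to 1.26). Which subunit gene was higher therefore differed among the libraries, 1 per preparation. Every interval left out a fold of 1, but these intervals cover counting error only. The coding sequences differ in GC content, 41.4% for FRS1 and 43.9% for FRS2, and in length, 1785 nt and 1509 nt. The part of either in these folds was not tested.

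ARC1 (YGL105W) encodes a tRNA-binding cofactor that holds the glutamyl- and methionyl-tRNA synthetases in a complex in yeast. It had 759 RPKM in the poly(A)-selected, 489 in the RiboMinus and 692 in the unselected library. The fold of GUS1 over ARC1 was 0.711 (0.687 to 0.736), 1.43 (1.31 to 1.56) and 1.11 (1.07 to 1.16). MES1 was below ARC1 in each library, at 0.272, 0.868 and 0.510 of its level. The order of ARC1 and GUS1 thus differed among the libraries, 1 per preparation, and that of ARC1 and MES1 did not. ARC1 has a coding length of 1128 nt and GUS1 of 2124 nt. Their centred log2 ratios (defined below) in poly(A)-selected over unselected RNA were -0.11 and -0.75. With the trend of all ORFs with length removed they were -0.24 and -0.26, and 0.31 and -0.01 in poly(A)-selected over RiboMinus RNA. The part of length was not tested.

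The 5 genes that supply both compartments, ALA1, CRS1, GRS1, HTS1 and VAS1, lay within the cytosolic range. Their medians were 368 RPKM in the poly(A)-selected, 647 in the RiboMinus and 502 in the unselected library, against 351, 484 and 526 RPKM for the 16 genes that supply the cytosol only. HTS1 (YPR033C) had 368, 349 and 363 RPKM. VAS1 (YGR094W) had 368, 802 and 696 RPKM, so HTS1 was nearly level among preparations while VAS1 was lowest after poly(A) selection.

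The comparison of poly(A)-selected with unselected RNA addresses which mRNAs an oligo(dT) capture over- or under-represents. The ratio is the log2 of RPKM plus 0.5 in 1 library over the other, centred on the median of the 5199 ORFs kept, whose RPKM averaged at least 1 over the libraries, and that centre was 0.24 before it was removed. The pseudocount understates differences of low genes. Genes at least 1.5-fold above or below the centre are called higher or lower, a bound on size and no test. By that rule 0 of the 35 genes were higher, where 20.4% of all ORFs kept were, and 13 of 35, or 37.1%, were lower, where 21.3% of all ORFs kept were. Without centring, 0 were higher and 9 were lower, all of these cytosolic, where 31.9% of all ORFs were higher and 12.6% lower.

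Of the 13 lower genes, 11 were cytosolic and 2 mitochondrial, and the 95% counting intervals of all 13 lay below 0. The median ratio was -0.62 over the 21 cytosolic genes and -0.38 over the 13 mitochondrial genes, where the median of all ORFs is 0 by construction. CDC60 (YPL160W), the leucyl-tRNA synthetase, had 217 RPKM in poly(A)-selected against 568 RPKM in unselected RNA, a ratio of -1.62 (95% counting interval -1.68 to -1.57), the lowest of all members. ILS1, described above at 313 and 714 RPKM, had -1.43 (-1.48 to -1.39). ALA1 (YOR335C) had 240 and 502 RPKM, a ratio of -1.30 (-1.36 to -1.25). These, together with VAS1 at -1.16 (-1.20 to -1.12), are the 4 longest cytosolic genes.

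The other cytosolic genes past 1.5-fold were less far from the centre. MES1 had a ratio of -1.01 from the levels given above. DPS1 (YLL018C), for aspartate, had 362 RPKM in poly(A)-selected against 597 RPKM in unselected RNA, a ratio of -0.96. GLN4 (YOR168W), for glutamine, had 215 against 351 RPKM, a ratio of -0.95. Of these, DPS1 stands apart in being short, with a coding length of 1671 nt against 2253 nt for MES1 and 2427 nt for GLN4.

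YHR020W, the prolyl-tRNA synthetase gene, had 310 RPKM in poly(A)-selected against 484 RPKM in unselected RNA, a ratio of -0.88. YDR341C, the cytosolic arginyl-tRNA synthetase gene, had 270 against 412 RPKM, a ratio of -0.85. GUS1 had a ratio of -0.75, and DED81 (YHR019C), at 537 against 701 RPKM, had -0.62. SES1, at -0.56, lay just short of the 1.5-fold bound. At the other end WRS1 was the only cytosolic gene above the centre, at 0.11 (0.02 to 0.21).

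Among mitochondrial genes MSM1 had the lowest ratio, -0.71 (-1.05 to -0.39), from 159 reads in poly(A)-selected and 153 in unselected RNA. NAM2 had -0.63 (-0.85 to -0.42) and was the other one past 1.5-fold. MSW1 had the highest, 0.29 (-0.01 to 0.61). The remaining mitochondrial genes lay between these values, and DIA4, at -0.01, sat on the centre.

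**Figure D4:**
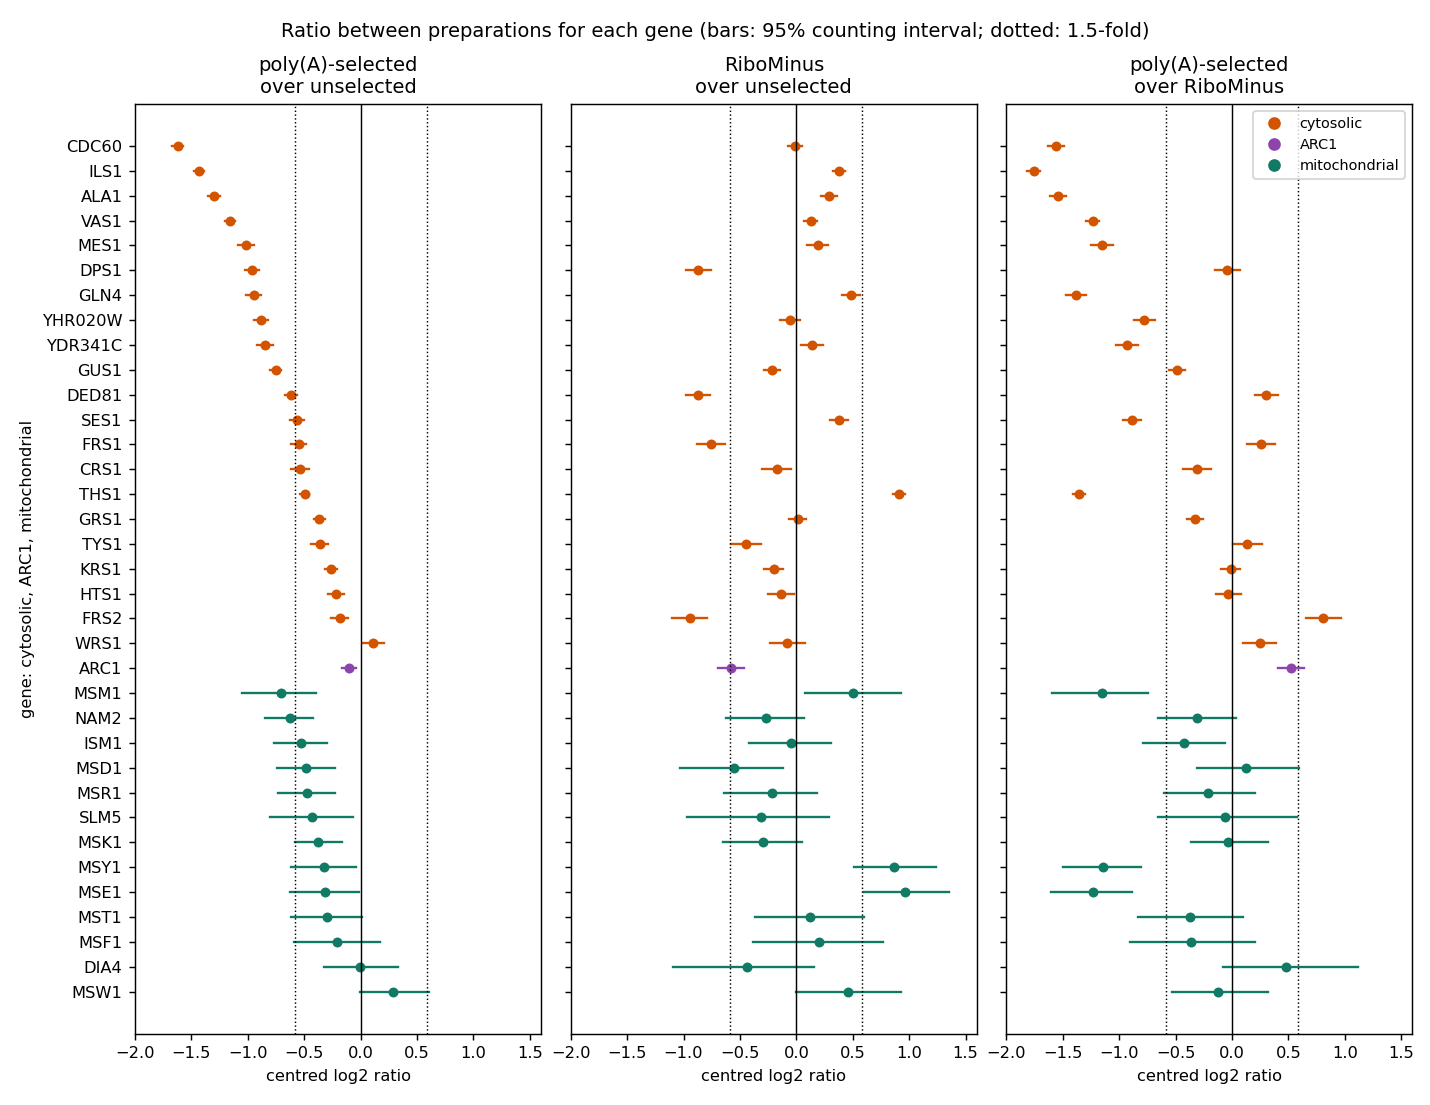
Centred log2 ratio of each gene in the comparisons of poly(A)-selected with unselected, RiboMinus with unselected and poly(A)-selected with RiboMinus RNA, with 95% counting intervals as bars and 1.5-fold as dotted lines. Cytosolic genes are orange, ARC1 purple and mitochondrial genes green, and in the left panel 11 cytosolic and 2 mitochondrial genes lie left of the lower bound and 0 lie right of the upper one.

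Coding length moved with this ratio. Across the 35 genes Spearman's rho between the ratio and coding length was -0.78, against -0.76 across all ORFs kept. Within the cytosolic set 8 of the 11 genes longer than 2000 nt were lower, against 3 of the 10 genes of at most 2000 nt. Of all ORFs kept, 63.7% of the 1197 longer than 2000 nt were lower, against 8.60% of the 4002 of at most 2000 nt. With the length trend removed, 1 cytosolic gene of each length group was lower. Within the mitochondrial set rho was -0.87 over 13 genes, and ISM1, the longest at 3006 nt, had -0.53 and 0.26 with the length trend removed. Once the running median of all ORFs against length was taken away, 2 of the 35 genes were lower, CDC60 at -0.74 and DPS1 at -0.71, and 0 were higher, where 9.50% of all ORFs were lower and 7.00% higher. The median was then -0.32 over cytosolic and -0.10 over mitochondrial genes. Removal of the trend also turned the sign of 8 members, all from below to above 0: CRS1, DIA4, GRS1, HTS1, ISM1, KRS1, NAM2 and THS1. The lengths of the classes differ, with medians of 2001 nt for cytosolic and 1608 nt for mitochondrial genes. The part of length or of RNA integrity in these ratios was not tested.

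Enzyme class moved with the ratio as well. Of the 17 class I genes 9 were lower, with a median of -0.63, and of the 17 class II genes 4 were lower, with a median of -0.43. As shares these are 52.9% and 23.5%, where 21.3% of all ORFs kept were lower. CDC60, ILS1, VAS1, MES1 and GLN4 are class I, and so are GUS1, YDR341C, MSM1 and NAM2. With the length trend removed 1 gene of each class was lower, where 9.50% of all ORFs were. The medians were then -0.26 for class I and -0.14 for class II. VAS1, CDC60 and ILS1, all class I, have the longest coding sequences of the 35 genes, and beyond the trend removed here the part of length in the class difference was not tested.

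**Figure D5:**
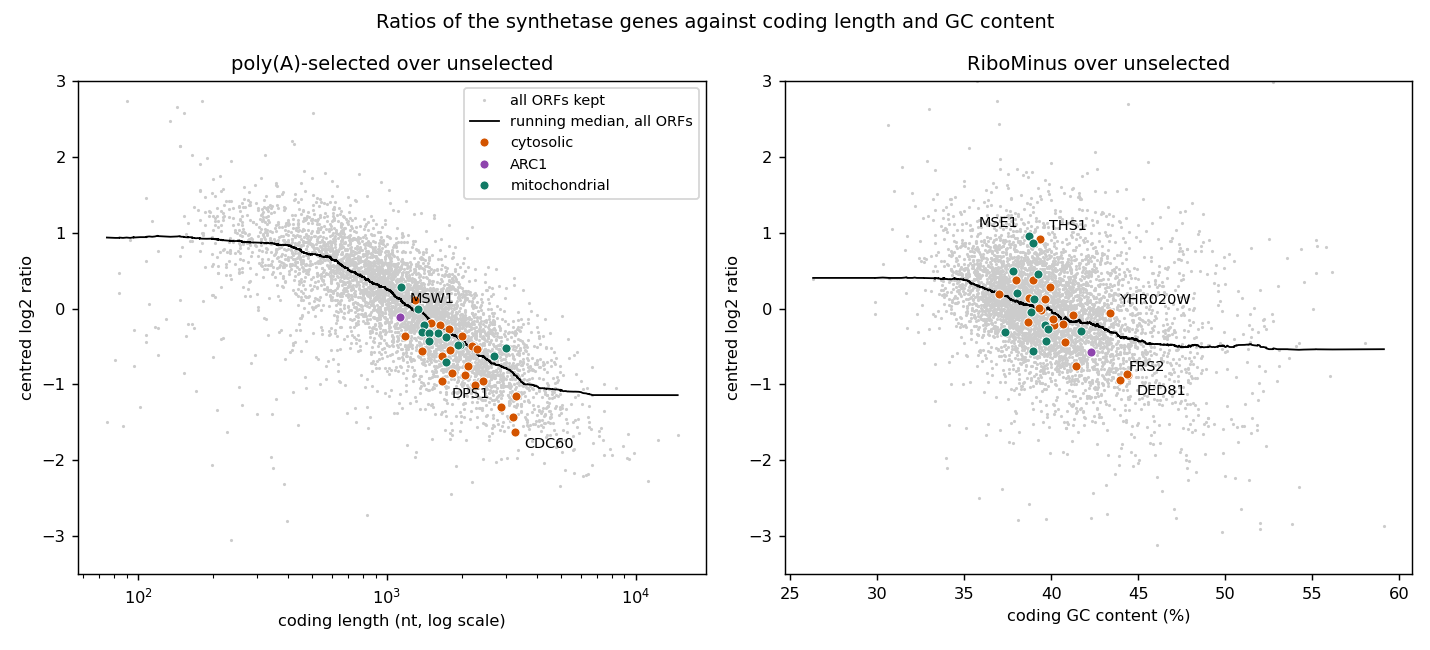
Left, centred log2 ratio of poly(A)-selected over unselected RNA against coding length (log axis); right, centred log2 ratio of RiboMinus over unselected RNA against coding GC content, for all ORFs kept (grey), cytosolic genes (orange), ARC1 (purple) and mitochondrial genes (green), with the running median of all ORFs as a line. CDC60, at -1.62, and DPS1, at -0.96, lie farthest under the line on the left, and FRS2, DED81 and DPS1 lie low on the right at a GC content near 44%.

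RiboMinus against unselected RNA asks what rRNA removal by probes does to the same mRNAs. The centre removed was 0.076 log2. Of the 35 genes 3 were higher, or 8.57%, where 14.6% of all ORFs kept were higher, and 4 were lower, or 11.4%, where 16.0% of all ORFs kept were lower. Both shares are below those of all ORFs. The medians were -0.05 over cytosolic and -0.05 over mitochondrial genes.

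The 3 higher genes were MSE1 at 0.96 (0.60 to 1.36), THS1 at 0.91 (0.86 to 0.96) and MSY1 at 0.87 (0.51 to 1.24). THS1 rested on 4640 reads in RiboMinus and 7902 in unselected RNA. MSE1 rested on 96 and 156 reads and MSY1 on 101 and 176 reads, which is why their intervals are wide. All 3 intervals lay above 0.

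The 4 lower genes were all cytosolic and of class II. FRS2 had 193 RPKM in RiboMinus against 353 RPKM in unselected RNA, a ratio of -0.94 (-1.11 to -0.79). DED81 had 404 against 701 RPKM, a ratio of -0.87 (-0.98 to -0.77). DPS1 had 345 against 597 RPKM, a ratio of -0.87 (-0.98 to -0.76), and FRS1 had 264 against 423 RPKM, a ratio of -0.75 (-0.88 to -0.63). Both subunits of the phenylalanine enzyme were thus among them. ARC1, at -0.58 (-0.70 to -0.46), lay just inside the 1.5-fold bound. The lowest mitochondrial gene was MSD1, at -0.55 (-1.03 to -0.12).

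GC content moved with this ratio. Spearman's rho with coding GC content was -0.66 across the 35 genes and -0.79 across the 21 cytosolic genes, against -0.38 across all ORFs kept. The 4 lower genes had a GC content of 41.4% to 44.4%, whereas the members ran from 37.0% to 44.4% with a median of 39.4%. YHR020W, at 43.4% GC, did not follow them and had a ratio of -0.05 (-0.14 to 0.03), and of 0.25 with the GC trend removed. With the running median against GC content removed, 3 genes were still higher and 2 were lower, where 14.9% and 11.6% of all ORFs were. The 2 lower genes were FRS1 at -0.59 and MSD1 at -0.60. FRS2 came to -0.58, DPS1 to -0.48 and DED81 to -0.47, short of 1.5-fold. With the trend against expression removed, 5 were higher and 4 lower, where 14.9% and 15.5% of all ORFs were. The part of GC content in these ratios was not tested.

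Poly(A)-selected set against RiboMinus RNA gives the difference between the enrichment methods, and it shares each library with 1 of the comparisons above, so it is no separate evidence. Of the 35 genes 1 was higher, where 25.8% of all ORFs kept were higher, and 13 were lower, or 37.1%, where 24.0% of all ORFs kept were lower. Without centring, 3 were higher and 13 lower, where 29.7% of all ORFs were higher and 19.8% lower. The higher gene was FRS2, with 366 RPKM in poly(A)-selected against 193 RPKM in RiboMinus RNA and a ratio of 0.81 (0.66 to 0.97). With the GC trend removed its ratio was 0.36, short of 1.5-fold. The lowest was ILS1, at 313 against 980 RPKM and -1.76 (-1.82 to -1.70). Of all ORFs kept, 61.7% of those longer than 2000 nt were lower, against 12.7% of the others. In the cytosolic set these were 8 of 11 and 2 of 10 genes. With the length trend removed 1 of the 35 was higher and 11 were lower, where 17.6% and 18.4% of all ORFs were. The median then went from -0.49 to -0.04 over cytosolic and from -0.31 to 0.08 over mitochondrial genes. The part of length was not tested.

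Of the 13 lower genes 10 were cytosolic. Besides ILS1 these were CDC60 at -1.56, ALA1 at -1.54, GLN4 at -1.38, THS1 at -1.36, VAS1 at -1.23, MES1 at -1.15, YDR341C at -0.93, SES1 at -0.89 and YHR020W at -0.78. The other 3 were mitochondrial, MSE1 at -1.23, MSM1 at -1.15 and MSY1 at -1.14. TYS1, the cytosolic tyrosyl-tRNA synthetase gene, had 445 RPKM in poly(A)-selected and 375 RPKM in RiboMinus RNA, a ratio of 0.14, while its mitochondrial counterpart MSY1 had 25.1 and 51.9 RPKM. The highest mitochondrial gene was DIA4, at 0.48 (-0.08 to 1.12), an interval that includes 0.

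Other genes of tRNA biology, 28 of which are listed, gave a comparison group: amidotransferase, tRNA processing, splicing, modification and export genes and a few more. The group also holds AIM10 and GRS2, a second glycyl-tRNA synthetase gene, neither of which was used in the pairs above. In poly(A)-selected against unselected RNA 3 of the 28 were higher, or 10.7%, and 6 were lower, or 21.4%, with a median of -0.03, where 20.4% of all ORFs kept were higher and 21.3% lower. With the length trend removed 0 were higher and 1, FMT1, was lower, where 7.00% and 9.50% of all ORFs were. The 3 higher were TRM9, a tRNA methyltransferase, at 0.84, THG1, which adds the extra guanosine of histidine tRNA, at 0.60, and DTD1, a D-aminoacyl-tRNA deacylase, at 0.59. The 6 lower were FMT1, the mitochondrial methionyl-tRNA formyltransferase, at -1.80 from 22 against 50 reads, LOS1, the tRNA exportin, at -1.44, TRL1, the tRNA ligase, at -0.87, GCN2, the kinase that senses uncharged tRNA, at -0.83, NCL1, a tRNA methyltransferase, at -0.82, and TRZ1, the tRNA 3′ endonuclease, at -0.68.

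In RiboMinus against unselected RNA 7 of these 28 genes were higher, or 25%, and 3 were lower, or 10.7%, with a median of 0.14, where 14.6% of all ORFs kept were higher and 16.0% lower. With the GC trend removed 4 were higher and 2 lower, where 14.9% and 11.6% of all ORFs were. The higher ones included CCA1, which adds the CCA end of tRNAs, at 0.94, and TUF1, the mitochondrial elongation factor, at 0.59. The lower ones were SLM3 at -1.03, GTF1 at -0.99 and SEN15 at -0.73, the last from 8 reads in RiboMinus with an interval that includes 0. In poly(A)-selected against RiboMinus RNA 5 were higher, or 17.9%, and 7 lower, or 25%, with a median of -0.25, where 25.8% of all ORFs kept were higher and 24.0% lower. With the length trend removed 1 was higher and 8 were lower, where 17.6% and 18.4% of all ORFs were. Whether the synthetases differ from these genes was not tested.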

How the data were processed

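RPKM values were made by the authors and deposited to 2 decimals for 5293 ORFs in each of 3 libraries. Bowtie2, TopHat2 and sacCer3 are named in the submitters' processing notes; versions, read counter and gene models: not given in the sources used here. Low RPKM values are spaced like reads per kilobase of coding length (stop codon left out) per 1e6 reads in listed ORFs, which gives reads within 0.1 of a whole number for 99.1% (poly(A)-selected), 99.9% (RiboMinus) and 99.9% (unselected) of values under 100 reads. A count of 0 allows 3 reads, which is 0.464, 2.28 and 0.674 RPKM at 1 kb. Gene intervals are 95% Poisson (levels) or Clopper-Pearson (ratios) and cover counting error only, since reads that carry no molecular identifier are not independent molecules. The 2 columns of other libraries were not used here. ORFs were kept if their RPKM averaged at least 1 (5199, with 94 removed). Trends are running medians over 10% of ORFs. Python 3.11.15, pandas 2.3.3, SciPy 1.17.1 and Biopython 1.88 were used, and the ratio step was tested on simulated data. All members are named, with full values for those most and least abundant, past 1.5-fold or at an extreme. Members and lists were chosen with earlier results of these data known.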

Additional observations from a re-analysis of the deposited data

How the results depend on the processing

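Of the values that answer a comparison, 124 kept their value within 1.5 times or their spread under the alternatives tried (pseudocounts of 0.1 and 2, no filter, a mean of at least 10 RPKM, no centring, removal of the trend with length, GC content or expression, and a 2-fold rule) and 14 moved. For poly(A)-selected over unselected RNA, the mitochondrial median was -0.14 without centring. Without the length trend 2 members were lower, where 9.50% of all ORFs were, and the medians were -0.32 (cytosolic) and -0.10 (mitochondrial). At 2-fold 5 were lower, where 8.64% of all ORFs were. Without the expression trend 16 were lower, all cytosolic, and the cytosolic median was -0.88. Without the GC trend 11 were lower, also all cytosolic. NAM2 changed sign to 0.093 without the length trend. For RiboMinus over unselected RNA, 2 were lower without the GC trend, where 11.6% of all ORFs were. Without the expression trend 5 were higher, where 14.9% of all ORFs were. At 2-fold 0 were higher and 0 lower, where 4.85% and 5.73% of all ORFs were. For poly(A)-selected over RiboMinus RNA, 3 were higher without centring, 0 without the GC trend, 2 without the expression trend and 0 at 2-fold. Of all ORFs 29.7%, 23.4%, 25.6% and 14.1% were higher in the same order of settings. The mitochondrial median was 0.083 without the length trend. For single genes 651 values stayed within their main counting interval, 188 moved outside it, and 1, NAM2, changed sign from past 1.5-fold. Among the 651 and the 188, 45 values of genes short of 1.5-fold also changed sign, and 19 of all sign changes, NAM2 included, came with the length trend removed. The cause was not tested. The mitochondrial genes have 28 to 446 reads per library, which limits their ratios. No paired analysis was possible because each preparation has 1 library and the labels carry no replicate numbers; leaving out a library would leave no comparison.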

Other observations

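GRS2 (YPR081C), a second glycyl-tRNA synthetase gene in the list of other tRNA genes, encodes a protein 59.9% identical to GRS1 over the shorter of the proteins. It had 21.8 RPKM in the poly(A)-selected, 17.6 in the RiboMinus and 20.2 in the unselected library, within the range of the mitochondrial synthetase genes. GRS1 was 28.2-fold (24.9 to 32.1), 40.6-fold (30.02 to 56.3) and 33.2-fold (28.5 to 38.9) above it, with 95% counting intervals.

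CDC60 and NAM2, the leucine pair, were 9.95-fold apart in poly(A)-selected, 23.6-fold in RiboMinus and 19.7-fold in unselected RNA, and ILS1 and ISM1, the isoleucine pair, were 18.9-fold, 47.4-fold and 35.2-fold apart. In both pairs the members are long: 3270 nt and 2682 nt for leucine, 3216 nt and 3006 nt for isoleucine. In poly(A)-selected over unselected RNA the centred log2 ratio of the cytosolic gene minus that of its mitochondrial counterpart was -0.99 for leucine and -0.90 for isoleucine. These were the lowest values among the 14 pairs, which ran from -0.99 to 0.11 with a median of -0.32. The part of coding length in them was not tested.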
